A study of Homo sapiens with 4 samples.

Results

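The clustered histone genes of chromosome 6 were examined for peaks of wild-type BRG1 and of BRG1 without its HSA domain. The genes were chosen by name and place. They were the protein-coding genes within a 3-Mb stretch of chromosome 6 whose symbol marks them as H1, H2A, H2B, H3 or H4 genes of the main histone cluster, which older annotation calls HIST1. The rule found 52 genes among 20176 protein-coding genes. They lay between positions 25723625 and 27861669 of chromosome 6 in hg19, over 2.14 Mb, and 40 other protein-coding genes shared the stretch. There were 6 H1, 12 H2A, 13 H2B, 10 H3 and 11 H4 genes.

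Peaks came from CUT&RUN, which uses an antibody to bring a nuclease to a chromatin protein and sequences the released DNA. The cells were SW-13, a human line from an adrenocortical carcinoma. It makes neither BRG1 nor BRM, which are the alternative ATPase subunits of SWI/SNF, a complex that moves nucleosomes. Stable lines carried a doxycycline-inducible, V5-tagged construct, either the wild-type protein (iBRG1) or one from which the HSA domain was deleted (i∆HSA). The HSA domain is the part of BRG1 that binds actin and the actin-related subunits of the complex. All 4 samples, 2 replicates per construct, received doxycycline for 24 h, held 300000 cells each and were probed with an antibody against V5. The comparison asks where on chromatin the protein was found with and without the domain. Each construct had 1 peak list, with 24212 iBRG1 peaks and 25371 i∆HSA peaks. The study itself reports far fewer peaks for each construct than these lists hold. The deposited lists include peaks scored below the minimum of 5 named in the study's methods, and 6575 iBRG1 and 10440 i∆HSA peaks score at least 5. The second number is near the study's for i∆HSA, but the first is well below its number for iBRG1. A limit of 5 on this column thus does not give back the study's iBRG1 list. The lists hold no value per replicate and no read counts, so the values below have no replicate error, the depth is unknown and no test between constructs was made. Each list carries a whole-number score from the authors, whose scale is not stated, and scores were not compared between the lists.

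Most histone genes of this kind are expressed in S phase, when new DNA has to be packed into nucleosomes. H2A, H2B, H3 and H4 form the core of the nucleosome and H1 binds the linker DNA. Their transcripts have no introns and end in a stem-loop instead of a poly(A) tail. Many H2A and H2B genes lie head to head and share a promoter, and octamer elements (ATTTGCAT) in these promoters are bound by OCT1. CCAAT boxes are bound by NF-Y, and TATA boxes by the TATA-binding protein.

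The genes were short and their products were alike. The annotated span had a median of 496 bp, and 41 of the 52 genes spanned less than 1 kb. The 10 H3 genes encoded 1 protein of 136 residues, and 10 of the 11 H4 genes encoded 1 protein of 103 residues. The 12 H2A genes encoded 7 distinct proteins, the 13 H2B genes 11 and the 6 H1 genes 6. Where neighbors less than 250 kb apart were joined, the genes fell into 4 groups. In order along the chromosome these held 2 genes over 3.95 kb, 29 genes over 269 kb, 5 genes over 21.7 kb and 16 genes over 86.4 kb.

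A few stretches of reference sequence show the promoters beside the peaks described here, and 1 promoter without a peak. The first is the whole interval between the starts of H2AC17 and H2BC17 (chr6:27860963-27861203, plus strand), the only head-to-head pair with peaks of both lists within 1 kb of its starts. H2AC17 is read leftward from its first base and H2BC17 rightward from its last. The others run from 100 bases before to 20 bases into the gene, in the direction of transcription. They are the 3 H4 promoters covered by an iBRG1 peak, the near copy of one of them that had no peak (H4C12), and the H3 promoter beside the highest-scoring i∆HSA peak at a histone gene (H3C4). Capitals mark the TATA box letters TATAAA, the CCAAT box and the octamer ATTTGCAT on either strand.
H2AC17-H2BC17: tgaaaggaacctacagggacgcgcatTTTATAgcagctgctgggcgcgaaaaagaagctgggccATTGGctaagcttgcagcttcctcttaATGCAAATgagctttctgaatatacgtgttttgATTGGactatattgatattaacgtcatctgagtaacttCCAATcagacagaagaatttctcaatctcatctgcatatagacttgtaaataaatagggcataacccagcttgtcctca
H4C3 (chr6:26104061-26104180, plus strand): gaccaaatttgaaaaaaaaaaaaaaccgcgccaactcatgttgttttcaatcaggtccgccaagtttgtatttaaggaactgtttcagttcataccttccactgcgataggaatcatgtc
H4C5 (chr6:26204738-26204857, plus strand): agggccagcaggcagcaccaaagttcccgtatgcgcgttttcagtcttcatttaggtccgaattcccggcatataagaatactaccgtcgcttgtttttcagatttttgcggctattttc
H4C11 (chr6:27791770-27791889, plus strand): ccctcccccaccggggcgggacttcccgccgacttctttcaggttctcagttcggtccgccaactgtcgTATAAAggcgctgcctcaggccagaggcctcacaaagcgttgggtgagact
H4C12 (chr6:27799319-27799438, minus strand): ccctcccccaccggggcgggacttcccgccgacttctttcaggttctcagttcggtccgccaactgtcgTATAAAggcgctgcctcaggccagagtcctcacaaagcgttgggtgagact
H3C4 (chr6:26197495-26197614, minus strand): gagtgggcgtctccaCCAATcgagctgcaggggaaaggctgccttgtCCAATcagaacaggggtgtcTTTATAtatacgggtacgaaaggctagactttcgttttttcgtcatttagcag

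Most of the histone genes had no peak. A gene was counted when a peak overlapped the annotated gene, or the 1 kb on either side of it, by at least 1 bp. By this rule 10 of the 52 genes had an iBRG1 peak (19.2%), against 39.2% of all protein-coding genes and 15 of the 40 other genes of the stretch (37.5%). An i∆HSA peak was found at 7 histone genes (13.5%), against 43.5% of all genes and 21 of the 40 neighbors (52.5%). Peaks of both lists were found at 3 genes (5.77%), against 26.2% of all genes. The 38 genes with neither made up 73.1%, against 43.5% of all genes. Longer genes have longer windows, and histone genes are among the shortest. Among the 480 other protein-coding genes that span less than 1 kb, 3.75% had an iBRG1 peak and 4.79% an i∆HSA peak. Of the 41 histone genes under 1 kb, 7 (17.1%) and 4 (9.76%) had one. Only H4C3 and H4C11 of those 7 had an iBRG1 peak with a score of at least 5, and all 4 kept an i∆HSA one. That limit keeps 27.2% of the iBRG1 list and 41.1% of the i∆HSA list, so these counts do not compare the constructs. The other short genes were not counted under that limit. The grouping by gene length was added after the data were seen.

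Windows of equal length put the genes closer to the rest of the genome. With 1 kb on each side of the start, 8 histone promoters had an iBRG1 peak, which is 15.4% (95% Wilson interval 8.01 to 27.5, which covers counting error only). The share of all promoters was 11.8% and that of the other promoters of the stretch was 12.5% (5 of 40, interval 5.46 to 26.1). The iBRG1 share of the histone promoters was therefore near the background, and which of them was higher depended on the rule. It was 5.77% against 8.87% of all promoters where the peak midpoint had to lie in the window, and 3.85% against 4.29% with scores of at least 5. An i∆HSA peak was found at 4 histone promoters, 7.69% (interval 3.03 to 18.2), against 14.3% of all promoters and 27.5% of the other promoters of the stretch (11 of 40, interval 16.1 to 42.8). The interval of the histone promoters holds the share of all promoters. Peaks of both lists were found at 3 histone promoters (5.77%), against 4.35% of all promoters, and 43 had neither (82.7%), against 78.2%. These genes are not independent of each other, since 1 peak can reach several neighbors. The 10 genes with an iBRG1 peak were reached by 7 peaks, and the 7 genes with an i∆HSA peak by 4.

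**Figure D1:**
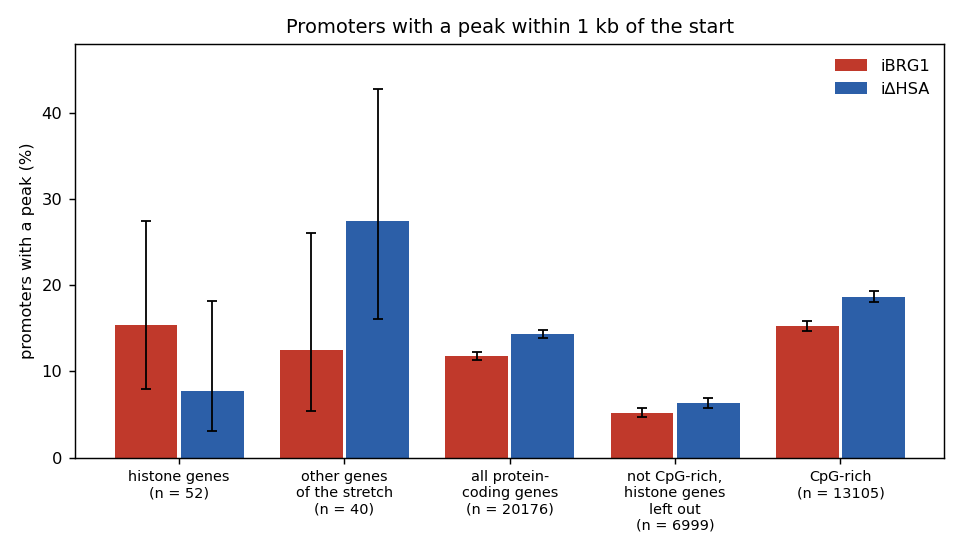
Share of promoters with a peak within 1 kb of the start (vertical axis, %) for the histone genes, the other genes of the stretch, all protein-coding genes, and promoters that are or are not CpG-rich, with iBRG1 in red and i∆HSA in blue. Error bars are 95% Wilson intervals. The histone genes stand at 15.4% for iBRG1 and 7.69% for i∆HSA, and the other genes of the stretch at 12.5% and 27.5%.

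Histone promoters differed from most promoters in base composition. In the 250 bases before to 50 bases after the start, the median GC content was 43.0% for the histone genes and 63.7% for all protein-coding genes. The median observed over expected CpG ratio was 0.748 for the histone genes and 0.773 for all genes, so mainly the GC content differed. A promoter with a GC content of at least 50% and an observed over expected CpG ratio of at least 0.6 was called CpG-rich, which held for 4 histone genes (7.69%) and for 65.0% of all genes. These 4 were H1-1, H1-2, H1-4 and H4C8, and none had a peak of either list within 1 kb of the gene. Across the genome, CpG-rich promoters had an iBRG1 peak in 15.3% and an i∆HSA peak in 18.6% of cases. Promoters that were not CpG-rich, with the histone genes left out, had one in 5.16% and 6.34%. These were not matched to the histone promoters for GC content or CpG ratio. Among the 48 histone promoters that were not CpG-rich, 8 had an iBRG1 peak (16.7%, interval 8.7 to 29.6) and 4 an i∆HSA peak (8.33%, interval 3.29 to 19.6). Of those 8, only H4C3 and H4C11 had an iBRG1 peak with a score of at least 5, and all 4 kept an i∆HSA one. The limit keeps unlike shares of the lists, 27.2% for iBRG1 and 41.1% for i∆HSA. H3C7 and H2BC9 share an iBRG1 peak, and so do H2AC17 and H2BC17. The share of the other promoters under that score limit was not counted. Of the 24 other promoters of the stretch that were not CpG-rich, 0 had an iBRG1 peak and 8 had an i∆HSA peak (33.3%). The split by CpG content was also added after the data were seen.

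Along the chromosome, the peaks at histone genes lay in 2 of the 4 groups. The group of 29 genes had 6 genes with an iBRG1 peak, 4 with an i∆HSA peak and 0 with both. The group of 16 genes had 4 with an iBRG1 peak, 3 with an i∆HSA peak and 3 with both. By the same rule 39.2% of all genes had an iBRG1 peak, 43.5% an i∆HSA peak and 26.2% both. The groups are too small for more than a count. The 2 genes at the near end, H2AC1 and H2BC1, had no peak, and neither did the group of 5 genes that holds H2BC11, H2AC11, H4C9, H2BC12 and H2AC12. The stretch as a whole held 55 iBRG1 peaks (18.3 per Mb) and 52 i∆HSA peaks (17.3 per Mb). Chromosome 6 held 10.5 and 9.67 per Mb, and the genome, over its full assembly length, 7.82 and 8.2. The highest-scoring peaks of the stretch lay away from histone genes. An iBRG1 peak of score 25 and an i∆HSA peak of score 25 overlapped at chr6:26928667-26930242, between the histone groups. The highest i∆HSA score of the stretch, 72, belonged to a peak at chr6:25503663-25505641.

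**Figure D2:**
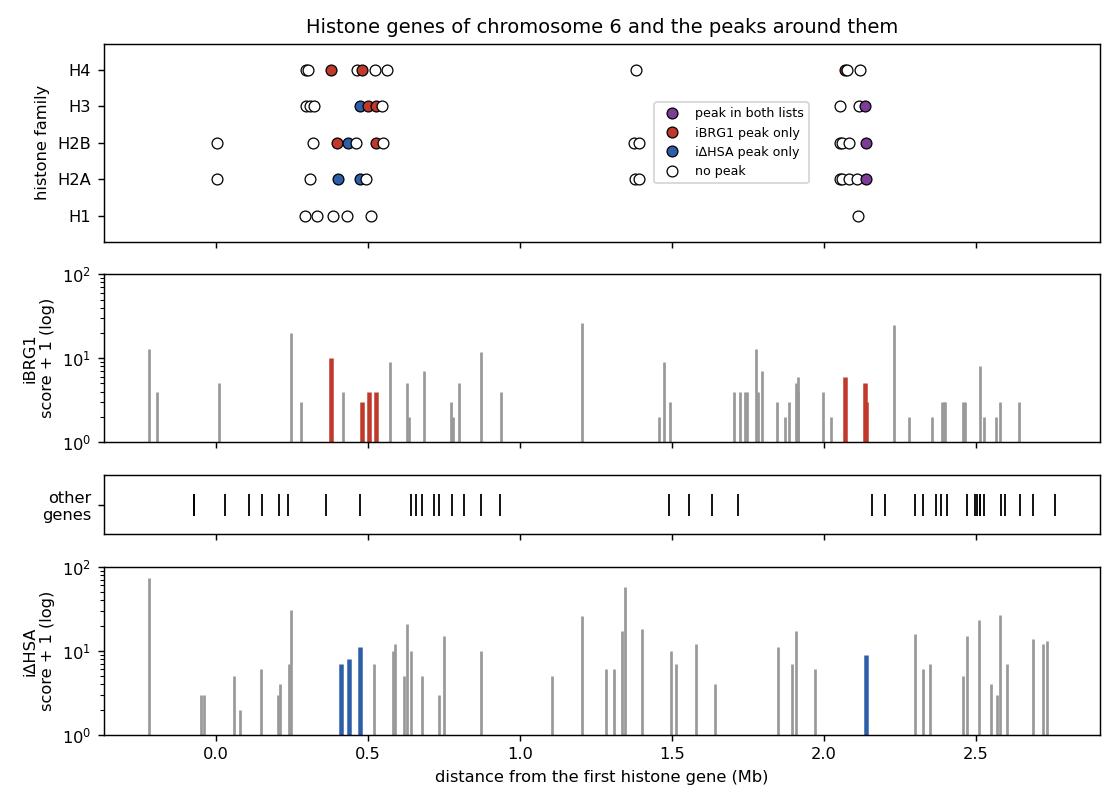
Positions of the 52 histone genes by family (top), iBRG1 peaks, starts of the 40 other genes, and i∆HSA peaks, against the distance from the first histone gene in Mb. Peak height is the authors' score plus 1 on a log axis, colored where the peak reaches a histone gene and gray elsewhere. Peaks of both lists meet at 3 genes near the far end, and the tallest lines are gray.

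The distance from a start to the nearest peak needs no window. For iBRG1 the median distance was 14400 bp for histone genes, 14600 bp for the other genes of the stretch and 29500 bp for all protein-coding genes. For i∆HSA it was 24700 bp, 11400 bp and 23300 bp. The start itself lay inside an iBRG1 peak in 5 histone genes (9.62%, against 8.9% of all genes). It lay inside an i∆HSA peak in 2 (3.85%, against 10.6% of all genes and 22.5% of the other genes of the stretch).

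**Figure D3:**
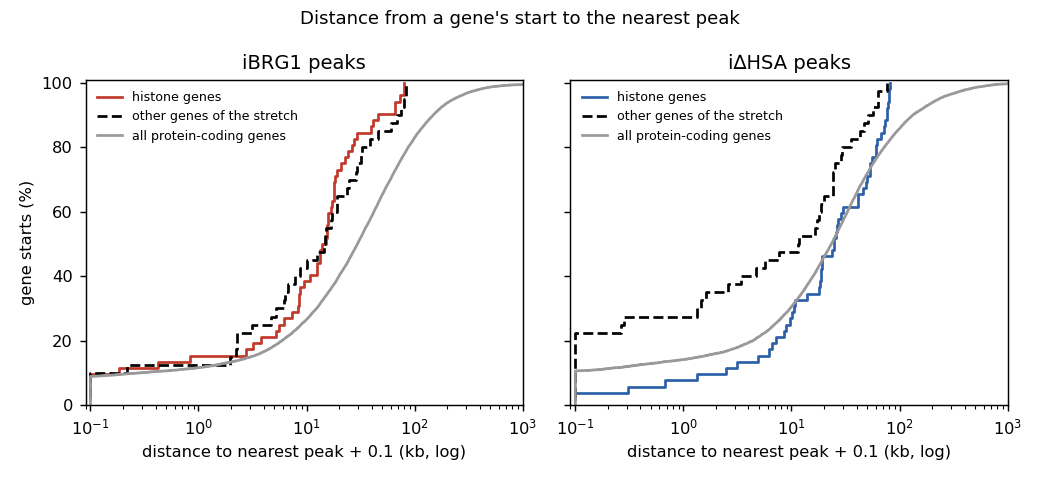
Cumulative share of gene starts (%) against the distance to the nearest peak (kb plus 0.1, log axis), for iBRG1 at left and i∆HSA at right. Histone genes are colored, other genes of the stretch dashed black and all protein-coding genes gray. For i∆HSA the dashed line lies above the histone genes, with medians of 11400 and 24700 bp.

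Of the 11 H4 genes, 3 had an iBRG1 peak and 0 an i∆HSA peak, against 39.2% and 43.5% of all genes. The counts were the same by promoter, where the shares of all promoters were 11.8% and 14.3%. H4 pairs with H3 in the tetramer on which the nucleosome is built. Each of the 3 peaks covered the start and the whole transcript. At H4C3 the peak (chr6:26102175-26104638) was 2464 bp wide and had a score of 9, the highest of the iBRG1 peaks at histone genes and above 87.3% of the list. It began 1986 bp before the start and ended 477 bp after it. At H4C11 the peak (chr6:27790958-27793821, score 5) ran from 912 bp before to 1951 bp after the start. At H4C5 the peak (chr6:26204675-26207673, score 2) began 163 bp before the start and ran to 2835 bp after it, so that it lay mostly downstream. The list had a median score of 2.

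The promoters of these 3 H4 genes were far less alike than near copies, though all 3 printed sequences hold the letters ggtccg. The printed sequence of H4C12, which had no peak, holds these letters too, and they were not counted in other promoters. Among the printed sequences, H4C11 has a TATAAA that begins 31 bases before the start. The 120 bases of H4C3 and of H4C5 hold no exact match to the 3 motifs, and variant forms were not searched. After alignment these 120 bases were 51.2% identical between H4C11 and H4C3, 46.0% between H4C11 and H4C5, and 44.7% between H4C3 and H4C5. H4C12, in contrast, is a near copy of H4C11. The 2 genes matched at 119 of 120 bases around the start and at 98.7% of the transcript, and H4C12 had no peak of either list within 1 kb. Reads from such copies cannot always be placed. The share of 32-base words of the transcript that occur elsewhere in the genome was 92.5% for H4C11 and 93.0% for H4C12, but 0% for H4C3 and 1.05% for H4C5. In the 1 kb before the start it was 14.8% for H4C11, 20.2% for H4C12, 0% for H4C3 and 12.3% for H4C5. The part that read placement had in the peaks at H4C11 and H4C12 was not tested.

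Peaks of both lists were found at 3 genes, which form 1 locus at the far end of the cluster. H3C12 encodes H3, and H2AC17 and H2BC17 encode H2A and H2B from starts 240 bp apart. The i∆HSA peak (chr6:27859184-27861383, score 8) was 2200 bp wide and covered the starts of both H2AC17 and H2BC17, the whole H2AC17 transcript and 38.8% of the H2BC17 transcript. The iBRG1 list had 2 peaks there. One (chr6:27859335-27859950, score 4) was 616 bp wide and lay 1013 bp downstream of the H2AC17 start and 731 bp upstream of the H3C12 start. The other (chr6:27861287-27863266, score 2) was 1980 bp wide, began 84 bp after the H2BC17 start and covered 82.0% of its transcript. The iBRG1 peaks thus lay on either side of the shared promoter and the i∆HSA peak lay over it. With scores of at least 5, neither iBRG1 peak was kept and the count of genes with both fell from 3 to 0. The lists shared 713 bp at the locus, which was the whole of the first iBRG1 peak (616 bp) and 97 bp of the second.

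**Figure D4:**
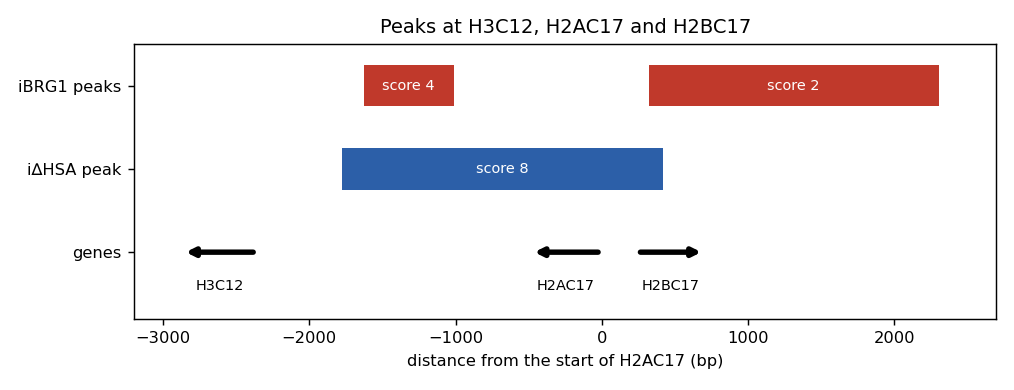
Peaks and genes at H3C12, H2AC17 and H2BC17 against the distance from the H2AC17 start (bp), with arrows in the direction of transcription and the authors' score on each peak. The blue i∆HSA peak spans the interval between the H2AC17 and H2BC17 starts, which lies between the red iBRG1 peaks of scores 4 and 2.

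The promoter that H2AC17 and H2BC17 share holds the usual elements of such pairs. Its 241 bases carry 1 ATTTGCAT, on the minus strand from 149 to 142 bases before the H2BC17 start. They carry 3 CCAAT, of which 1 is on the plus strand from 78 to 74 bases before that start and 2 are on the minus strand. A TATAAA on the minus strand, which is the H2AC17 strand, lies near the H2AC17 start. Words of 32 bases found elsewhere in the genome made up 11.2% of the H2AC17 transcript and 26.8% of the H2BC17 transcript, and 12.1% and 5.26% of the 1 kb before their starts.

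With starts less than 1 kb apart on opposite strands, 9 pairs (18 genes) were found, with 194 to 979 bp between starts. All but the widest of them joined an H2A gene to an H2B gene. Only H2AC17 with H2BC17, and H3C7 with H2BC9, had peaks within 1 kb of both starts. These were 4 of the 18 pair genes (22.2%), all 4 with an iBRG1 peak and 2 with an i∆HSA one, and 5 of the 34 other histone genes had a promoter peak in either list (14.7%). Of all promoters, 11.8% had an iBRG1 peak, 14.3% an i∆HSA peak and 78.2% neither. The share of pair genes with a peak in either list was thus near that of all promoters. H3C7 and H2BC9, whose starts are 979 bp apart, were covered by a single iBRG1 peak (chr6:26249879-26254885, score 3). At 5007 bp it was wider than 99.3% of the list, and it held both transcripts whole. No i∆HSA peak reached this pair. Words of 32 bases found elsewhere made up 3.89% of the H3C7 transcript, over 10% of the H2BC9 transcript and 0% of the 1 kb before either start. The H2BC9 transcript was 1 of 21 histone transcripts above 10%, and the median over all 52 was 5.88%.

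The H3 genes, all of which encode the same protein, had a peak of either list at 4 of 10 genes. The other 6 had neither, against 43.5% of all genes. Besides H3C7 and H3C12, H3C4 had an i∆HSA peak and H3C6 an iBRG1 peak. The i∆HSA peak at H3C4 (chr6:26197718-26198298, 581 bp) had a score of 10, the highest of the 4 i∆HSA peaks at histone genes and above 82.3% of the list. It ended 204 bp before the H3C4 start and lay 714 bp past the end of H2AC7, a neighboring H2A gene. The H3C4 promoter printed above holds 2 CCAAT, at 85 and 53 bases before the start, and 1 TATAAA on the other strand at 33 to 28 bases. The iBRG1 peak at H3C6 (chr6:26228434-26229078, score 3) lay 733 bp past the annotated end of the gene and 3071 bp from the start, so it counts for the gene and not for the promoter.

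The remaining peaks reached genes with long alternative models. H2BC4, H2BC5 and H2AC6 encode core histones from single short exons, but the annotation gives them models that run on for kilobases. The i∆HSA peak at H2AC6 (chr6:26134078-26136216, score 6) lay 9678 bp from the start, and the one at H2BC5 (chr6:26161362-26162608, score 7) lay 3012 bp from it. For H2BC4 the iBRG1 peak was the one at H4C3, 19516 bp from the H2BC4 start. With windows around the principal transcript alone, a choice added after the data were seen, these 3 genes and H3C6 had no peak. The 7 genes that span over 5 kb include all 3.

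Among H1 genes, 0 of 6 had a peak of either list. H2A genes had an iBRG1 peak at 1 of 12 and an i∆HSA peak at 3 of 12 genes. H2B genes had them at 3 and 2 of 13, H3 genes at 3 and 2 of 10, and H4 genes at 3 and 0 of 11. The shares of all genes were 39.2% for iBRG1 and 43.5% for i∆HSA. By promoter, the iBRG1 counts were 1 for H2A, 2 for H2B, 2 for H3 and 3 for H4, and the i∆HSA counts were 1, 1, 2 and 0, where 11.8% and 14.3% of all promoters had a peak. With counts this small and no replicate values, the families were not compared by a test.

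**Figure D5:**
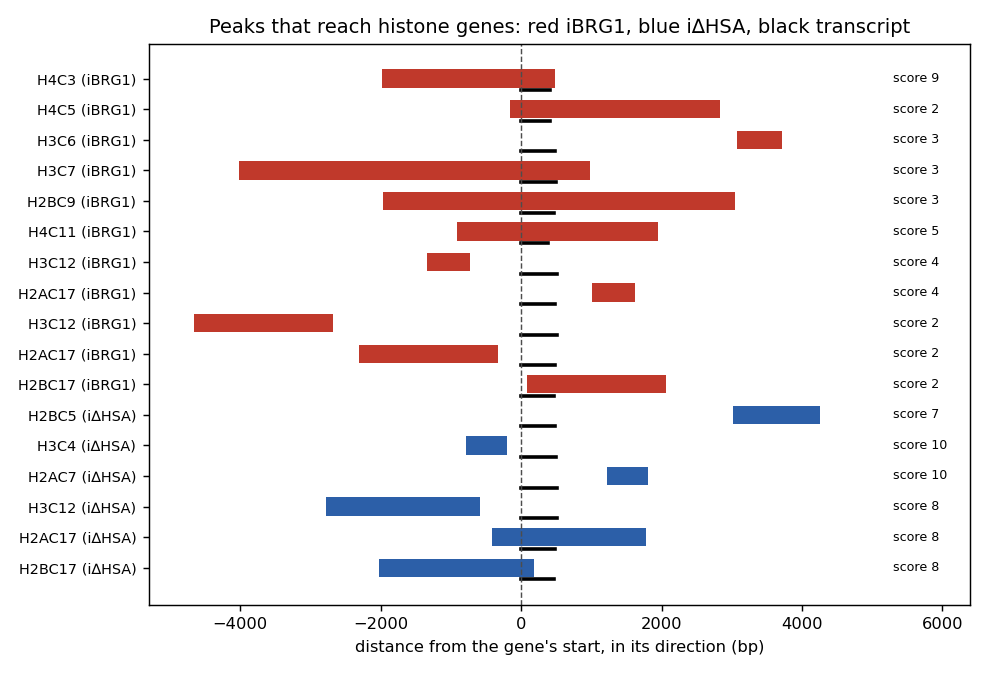
Peaks that reach histone genes, drawn against the distance from each gene's start in its own direction (bp), with the transcript as a black line and the authors' score at right. The 2 genes whose peak lies more than 5000 bp from the start, H2BC4 and H2AC6, are left out. Red iBRG1 peaks cover the starts of H4C3, H4C5, H3C7, H2BC9 and H4C11, and blue i∆HSA peaks those of H2AC17 and H2BC17.

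The 7 iBRG1 peaks had scores of 2 to 9 (median 3, list median 2) and widths of 616 to 5007 bp (median 2464, list median 1321). A score of at least 5 was held by 2 of them (28.6%) and by 27.2% of the list. The 4 i∆HSA peaks had scores of 6 to 10 (median 7.5, list median 4) and widths of 581 to 2200 bp (median 1693, list median 1318). All 4 scored at least 5, as did 41.1% of the list. High i∆HSA scores were not particular to histone genes. Of all 52 i∆HSA peaks of the stretch, 38 scored at least 5 (73.1%), with a median of 6.5. Median GC content was 42.8% for the iBRG1 peaks and 38.1% for the i∆HSA peaks, against 38.6% and 38.2% over the lists. TGANTCA, the motif of the AP-1 factors, lay within 100 bp of the midpoint in 1 of the 7 iBRG1 peaks, at H4C11, and in 13.1% of the list. It did so in 1 of the 4 i∆HSA peaks, at the H2AC17 locus, and in 9.59% of the list. A peak of the other list was overlapped by 2 of the 7 iBRG1 peaks and 1 of the 4 i∆HSA peaks. For the rest of the stretch these counts were 10 of 48 and 10 of 48, and over the lists the shares were 20.5% and 19.6%.

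The promoter elements of histone genes were found both in promoters with a peak and in those without one. TATAAA was found in 36 of the 52 promoters (69.2%, against 9.81% of all promoters), counting both strands from 250 bases before to 50 after the start. CCAAT was found in 45 (86.5%, against 36.0%). ATTTGCAT was found in 20 (38.5%, against 1.58%), of which 10 were among the 12 H2A and 10 among the 13 H2B promoters. CCAAT was present in every H1, H2A, H2B and H3 promoter and in 4 of the 11 H4 promoters. Of the 9 promoters with a peak in either list, 6 held TATAAA, 7 held CCAAT and 3 held ATTTGCAT. Of the 43 without one, 30, 38 and 17 held them. TGANTCA was found in 1 histone promoter (1.92%), against 5.42% of all promoters, and that promoter had no peak. Neighboring genes of a head-to-head pair share part of these windows.

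Of 14 replication-dependent histone genes outside chromosome 6, 5 had an iBRG1 promoter peak and 0 an i∆HSA one, against 11.8% and 14.3% of all promoters. On chromosome 1, a single peak of score 10 (chr1:149822239-149823514) reached H2AC19 and H3C15, one of score 9 (chr1:228643562-228646684) reached the H2AC25 and H2BC26 pair, and one of score 6 (chr1:149813272-149816692) reached H3C14. Of 19 genes listed as replacement variants, 3 had an iBRG1 promoter peak, near the share of all promoters, and 0 an i∆HSA one. These were H3-3B, H1-10 and H2AZ2, with scores of 4, 0 and 2. These 8 genes were named after their values were seen.

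Genes that act on histone genes and histones showed a mixed picture. Of 16 genes for transcription regulators of histone genes, 3 had an iBRG1 promoter peak and 4 an i∆HSA one. NFYA, a subunit of the CCAAT-binding factor NF-Y, had both, with scores of 13 in the iBRG1 list and 6 in the i∆HSA list. Of 22 genes for processing of the histone pre-mRNA 3' end, 4 and 8 had promoter peaks. Both lists had one at LSM10, a subunit of the U7 snRNP (scores 3 and 5), and at SYMPK, a scaffold of the cleavage complex (scores 2 and 6). Of 18 histone chaperone genes, 3 and 2 had promoter peaks, and HJURP, the chaperone of the centromeric H3 variant, had both (scores 2 and 4). Beside the shares of all promoters, 11.8% and 14.3%, these lists are too small for more than a count.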

How the data were processed

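CUT&RUN with an antibody against V5 was performed in 4 samples, 2 per construct, and grouped by the sample titles. Per the submitters' processing notes, which name hg19, and the study's methods, the authors trimmed reads with Cutadapt, aligned them with Bowtie2, removed duplicates with Picard, used SAMtools and called peaks with MACS2 2.2. Peaks of negative controls were then removed and a minimum score of 5 applied. The deposited lists hold a score for each peak that starts below that minimum, so the filter was not applied to this column as it stands. Whether replicates were pooled is not stated. Library depth and background affect how many peaks a list holds, and reads from near-identical histone genes may be lost or misplaced.

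From the deposited peaks, overlaps with the GENCODE release 44 annotation mapped to GRCh37 were counted (0 peaks ended beyond a chromosome). A start is that of the canonical transcript, and the outermost start was tried as an alternative. HIST1H4B, listed under its older name, has no such transcript and its gene start was used. Positions are 1-based, and sequences come from GRCh37. The overlap counter was checked on simulated intervals. No column was left unmapped (0). Python 3.11.15 was used with Biopython 1.88, matplotlib 3.10.9, numba 0.67.0, numpy 2.4.6, pandas 2.3.3, pysam 0.24.0 and scipy 1.17.1.

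The members and lists were chosen with earlier results of these data known. Genes named were those with peaks in both lists, those at the 5 highest-scoring peaks of each list at histone genes, and divergent pairs with a peak. Where a family had 3 or fewer genes without a peak, these were named too. In the other lists they were genes with peaks in both, at most 4 a list. Further genes were named after their values were seen.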

Additional observations from a re-analysis of the deposited data

How the results depend on the processing

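No paired analysis was possible because the lists give no values by replicate, which also left no way to drop a replicate. Of 78 alternative values, 56 were counted as unchanged and 22 as moved. Counts had to stay within 1.5 times the reported count and shares within their interval. Every alternative median score differed from the reported one and was counted as moved. Keeping only peaks at or above the list median score removed none at histone genes, so those values could not differ. The count of histone genes with neither peak was 38 of 52, so it could not rise by 1.5 times and this limit says little about it. Under the alternatives run it lay between 38 and 48, and the 56 values that stayed include all of these. Limits on the score moved the counts most. With scores of at least 5, 3 histone genes had an iBRG1 peak (H2BC4, H4C3 and H4C11) in place of 10, 0 had both, and 7 still had an i∆HSA peak. This limit keeps 27.2% of the iBRG1 list and 41.1% of the i∆HSA list, so it does not compare the constructs. With the 5000 highest-scoring peaks of each list, 2 had an iBRG1 peak, 2 an i∆HSA peak, 0 both and 48 neither. The shares of all genes in these gene windows were not counted under either limit, so the falls cannot be called particular to histone genes. With scores of at least 5, iBRG1 promoter shares were 3.85% of histone genes, 2.5% of the other genes of the stretch and 4.29% of all genes, and 8.61% of all genes had an i∆HSA one. With windows around the start only, 4 histone genes had an i∆HSA peak, and counted as peaks instead of genes, a choice added after the data were seen, there were also 4. With the peak midpoint inside the window, the iBRG1 share was 5.77% of histone promoters and 8.87% of all, and the i∆HSA share 10.8% of all. With 500 bp on each side of the start, 10.8% and 13.2% of all promoters had an iBRG1 and an i∆HSA peak, and with 2 kb, 13.5% and 16.1%. Over gene bodies alone the median scores at histone genes were 3.5 (iBRG1) and 7 (i∆HSA), and at starts only, 3.5 and 9. The outermost start and leaving out readthrough models, both added after the data were seen, moved no share. The lists give no depth, so the absence of a peak at a gene is not evidence that the protein was absent there.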

Other observations

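Among the other genes of the stretch, ABT1 and ZSCAN31 had promoter peaks in both lists. By kind, the 14 zinc finger and SCAN domain genes had an iBRG1 promoter peak at 3, an i∆HSA one at 5 and both at 1. The 6 butyrophilin genes, which encode immune surface proteins, had them at 0 and 3. The 4 SLC17A genes, which encode anion transporters, had 0 of either at the promoter. With the gene and 1 kb on each side, 3 of these 4 had an i∆HSA peak and 0 an iBRG1 one, against 43.5% and 39.2% of all genes. Of all promoters, 11.8% had an iBRG1 peak, 14.3% an i∆HSA peak and 4.35% both. These groups were formed with earlier results of these data known, and no test was made of them.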
